A study of Mus musculus with 8 samples.

Results

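The amino acid transporter genes described here were the 44 genes whose symbols place them in the Slc1, Slc7, Slc36, Slc38 and Slc43 families, together with Slc3a1, Slc3a2, Slc6a6 and Slc6a9. They were picked by symbol from 55367 genes in the count table, with earlier results of these data known. Of the 44 members, 26 had at least 10 counts in at least 3 of 8 libraries and were tested, among 12137 genes that passed that filter. The tested members were 4 of 7 in the Slc1 family, 1 of 2 Slc3 genes, both Slc6 genes, 7 of 15 in Slc7, 2 of 4 in Slc36, 7 of 11 in Slc38 and all 3 in Slc43. Of the other 18 members, 10 had no count in any library, which at these depths allows a level of up to 0.213 to 0.364 CPM, the counts of a gene scaled to a common library size, and 8 had counts of at most 7.

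The RNA came from 1 cultured line of mouse fibroblastic reticular cells (FRCs), the stromal cells that build the conduit network of the lymph node, derived from C57BL/6 mice carrying the p53ER/ER allele, so every library shares that genotype. Cells were kept for 4 days in medium conditioned by B16.F10 melanoma cells (TCM), medium conditioned by the FRCs themselves (CCM), RPMI with 15 mM lactic acid (LA), or RPMI with the same volume of water (vehicle). All media were supplemented with a low level of serum, and there were 2 libraries in each of the 4 conditions. TCM against CCM asks what tumor-conditioned medium does beyond conditioning by FRCs, LA against vehicle asks what lactic acid alone does, and CCM against vehicle shows the background of conditioning itself.

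Amino acid carriers move amino acids across the plasma membrane or the lysosomal membrane, and many exchange 1 substrate for another. Light chains of the Slc7 family reach the membrane only as a disulfide-linked pair with a heavy chain, Slc3a2 (CD98) or Slc3a1. Several carrier genes, among them Slc7a11, Slc7a5, Slc38a2 and Slc3a2, are known targets of the transcription factor Atf4 during amino acid shortage, and the sestrins and Slc38a9 connect amino acid supply to the growth kinase complex mTORC1.

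Total counts per library ranged from 8232889 to 14107964. The stromal genes Col1a1 (131525 to 244327 counts), Pdpn (1023 to 1845 counts) and Vcam1 (1190 to 2177 counts) were abundant, whereas Thy1 had 1 to 16 counts, Ccl19 at most 1, and Ccl21a was at 0 in all libraries. Cxcl13 had 43 counts in CCM replicate 1 and 0 in the others. Markers of blood cells reached at most 2 counts (4 of 5 genes at 0 throughout), endothelial markers at most 13 and epithelial markers at most 1. Of the 6 melanocyte markers, Tyr was at 0 throughout, Pmel had 10 to 21 counts spread over all conditions, and Tyrp1 had 6 and 3 counts in the TCM libraries and 0 elsewhere. The summed level of the melanocyte list was 0.956 to 1.77 CPM in CCM and 1.64 to 1.90 CPM in TCM. The summed level of 6 proliferation genes moved with the conditions, at 616 to 651 CPM in vehicle, 908 to 952 in CCM, 922 to 998 in LA and 455 to 489 in TCM. Each of the 6 was called lower in TCM than in CCM, and their part in the results that follow was not tested.

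The RefSeq promoter table (GRCm38.p6) held start regions, running from 250 bases before to 50 after the start site, for 19 of the 26 tested members, 30 regions in all. These were searched on both strands for TGATGNAA, the core letters of the amino acid response element to which Atf4 binds. The core was present in 13.3% of the members' regions (4 of 30) and in 3.97% of all 32851 regions in the table. Of the Atf4 targets named above, Slc7a11 held the core in its region, those of Slc38a2 and Slc3a2 did not, and Slc7a5 had no region. Sequence beyond these regions was not searched, so a core elsewhere in these genes would be missed. The members holding the core were Slc7a11, Slc1a4 and Slc7a7, and 2 of the 4 regions belong to Slc7a7 and share sequence. Of the 19 tested members with a region, 6 were called lower in TCM than in CCM (31.6%, beside 10.2% of all genes), and these 3 are among the 6, although the call of Slc7a7 was lost under most alternatives. Their regions are shown because they hold the core, 5′ to 3′ on the gene's strand, with the core in capitals.

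Slc7a11 (chr3:50443564-50443863, minus strand): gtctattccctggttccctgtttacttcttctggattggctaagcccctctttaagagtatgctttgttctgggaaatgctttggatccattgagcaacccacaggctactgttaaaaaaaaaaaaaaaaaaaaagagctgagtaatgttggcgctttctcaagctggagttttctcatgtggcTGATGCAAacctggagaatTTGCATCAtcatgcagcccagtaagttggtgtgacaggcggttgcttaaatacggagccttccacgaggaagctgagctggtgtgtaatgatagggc

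Slc1a4 (chr11:20332664-20332963, minus strand): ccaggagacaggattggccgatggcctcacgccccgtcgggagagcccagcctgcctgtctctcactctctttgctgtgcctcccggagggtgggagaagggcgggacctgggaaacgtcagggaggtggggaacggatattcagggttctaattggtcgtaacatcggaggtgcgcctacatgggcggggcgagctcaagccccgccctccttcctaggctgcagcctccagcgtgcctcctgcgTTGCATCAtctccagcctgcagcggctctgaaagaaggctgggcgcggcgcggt

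Slc7a7 (chr14:54417895-54418194, minus strand): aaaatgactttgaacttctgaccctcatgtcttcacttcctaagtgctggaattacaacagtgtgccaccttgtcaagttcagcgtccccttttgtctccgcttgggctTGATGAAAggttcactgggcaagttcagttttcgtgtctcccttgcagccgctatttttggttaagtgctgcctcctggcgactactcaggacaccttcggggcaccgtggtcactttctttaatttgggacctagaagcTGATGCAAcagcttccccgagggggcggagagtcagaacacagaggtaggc

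In Slc7a11 the core occurred on both strands, beginning 66 and 47 bases before the start site. In Slc1a4 it lay on the opposite strand across the start site. In the printed region of Slc7a7 it began 141 bases and 1 base before that region's start. Slc7a7 has other annotated starts. The second of these cores also lay 243 bases before another start (chr14:54417653-54417952), and the remaining regions of the gene held none. A match of letters is a description of the region and not a site of binding. Whether holding the core goes with being called lower, over all genes, was not tested. The antioxidant response element core TGANNNNGC occurred in 63.3% of the members' regions and 41.3% of all regions, and 1 of its matches in Slc7a11 overlaps the amino acid response core. The E-box CACGTG occurred in 13.3% of the members' regions and 7.15% of all regions.

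Levels of the tested members spanned a wide range when expressed per exon length. Averaged over the 8 libraries, Slc7a5, the light chain for leucine and other large neutral amino acids, had the highest level at 121 CPM per kilobase of exon, followed by its heavy chain Slc3a2 at 109. Slc38a2, a sodium-coupled carrier of glutamine and alanine, stood at 64.7 CPM per kilobase and the cationic carrier Slc7a2 at 46.3. In all, 9 members lay above 20 CPM per kilobase, 9 between 2 and 20, and 8 below 2. The lowest was Slc38a9, the lysosomal carrier that senses arginine, at 0.407 CPM per kilobase. Lengths joined all annotated exons of a gene, 16704 bases for Slc38a9, so the order depends on that choice. Without division by length, its group means (6.07 to 7.67 CPM) lay above those of Slc43a1 (1.86 to 3.27 CPM). Neighbours in the per-kilobase order often overlapped from library to library, as Slc7a5 (77.9 to 147) and Slc3a2 (86.2 to 127) did on that scale. The tested members together amounted to 3342 ± 59.8 CPM in vehicle, 3198 ± 80.8 in CCM, 3142 ± 46.3 in LA and 2879 ± 265 in TCM (SD, n = 2 each), and the wide SD in TCM reflected 2691 and 3067 CPM in its 2 libraries.

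**Figure D1:**
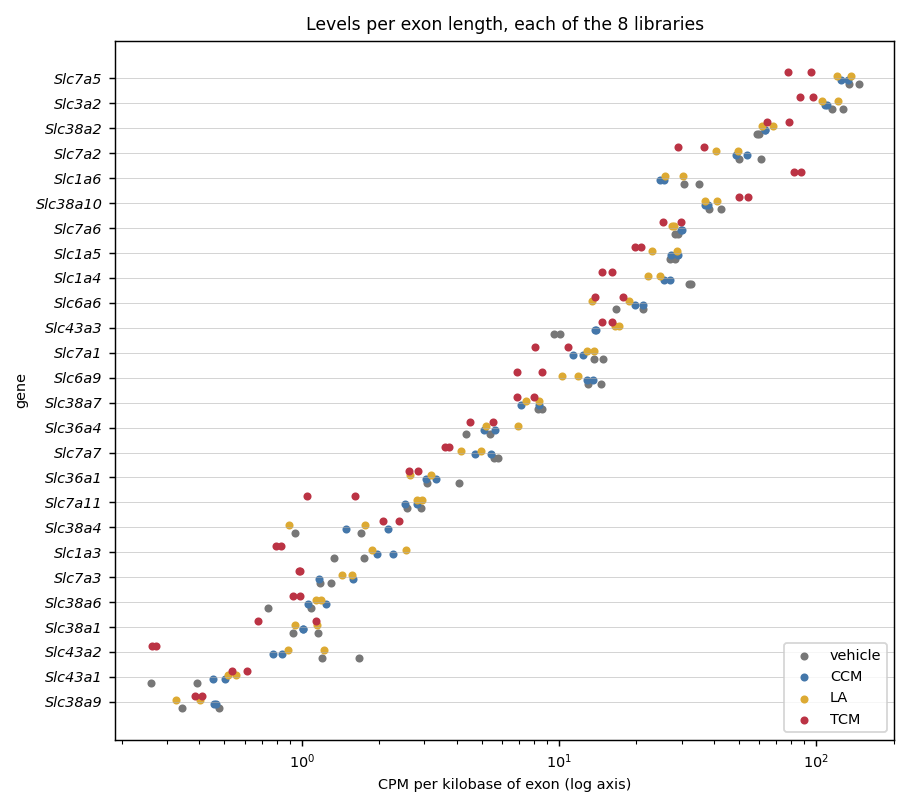
Levels of the 26 tested members in CPM per kilobase of exon (horizontal log axis), with 1 point for each of the 8 libraries and colours for the 4 conditions. Slc7a5 and Slc3a2 lie at the top and Slc38a9 at the bottom, and the TCM points of Slc1a6 stand to the right of its other points while those of Slc43a2, Slc7a11 and Slc1a3 stand to the left.

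Between TCM and CCM, 9 transporter genes were lower in TCM and 2 were higher, and 15 did not pass the test. A gene was called when its adjusted P from edgeR's quasi-likelihood test was under 0.05, adjusted over all 12137 genes by the Benjamini-Hochberg method, and its log2 fold change exceeded 0.39 in size. The 11 calls were 42.3% of the tested members, beside 19.1% of all tested genes. Members called lower were 34.6%, beside 10.2% of all genes, and members called higher were 7.69%, beside 8.83%. The median log2 fold change was −0.27 over the members and 0.00 over all genes. Without trimmed-mean (TMM) scaling, which shifted the median of all genes to −0.14, 13 members were called, 12 lower and 1 higher, beside 22.2% of all genes (2692). In such bulk libraries, fewer cells of a type and less RNA per cell cannot be told apart.

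**Figure D2:**
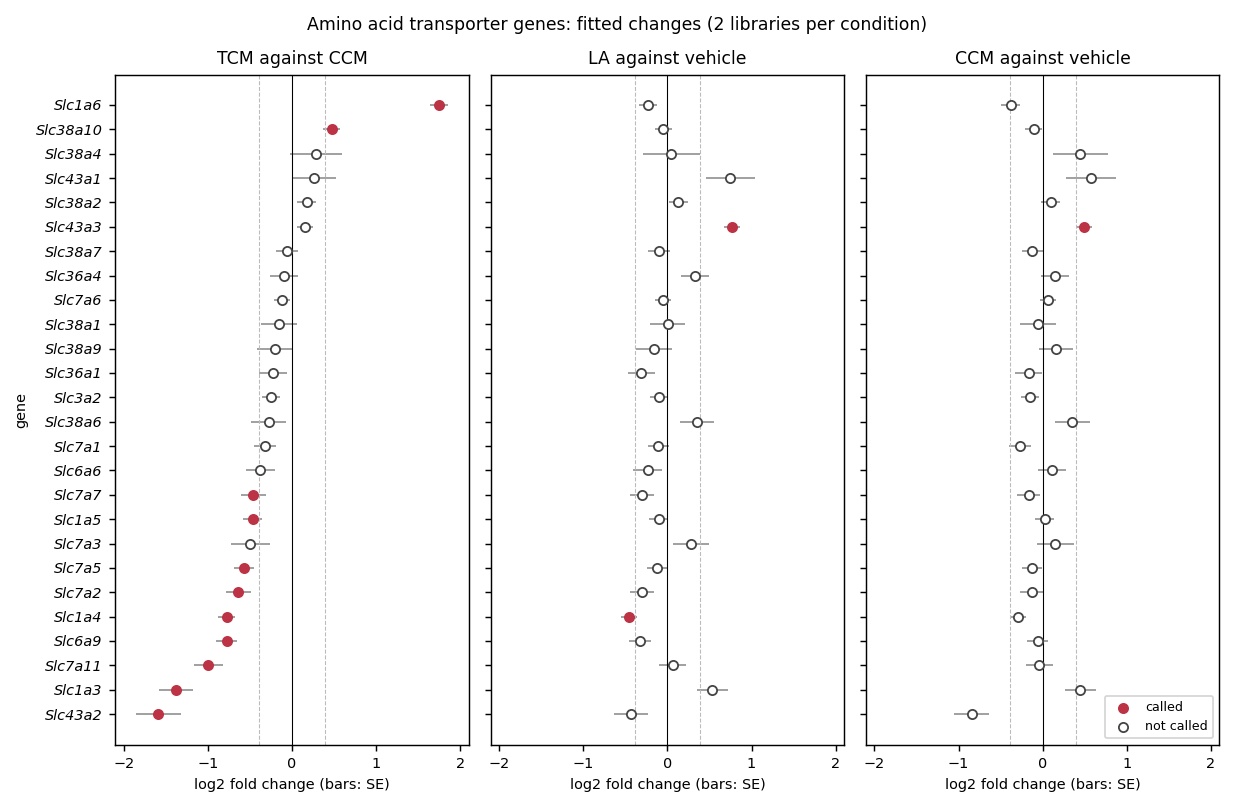
Fitted log2 fold change (horizontal axis, bars are SE) of the 26 tested members in 3 comparisons, with called genes filled, dashed lines at the fold threshold of 0.39 and 2 libraries per condition. In TCM against CCM 9 members are filled to the left and 2 to the right, whereas LA against vehicle has 2 filled points and CCM against vehicle has 1.

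The Slc1 family held the strongest rise and, with Slc1a3, one of the strongest falls. Each of its 4 tested members was called between TCM and CCM, 3 lower and 1 higher, beside 19.1% of all genes called. Whether the counts of such small families differ from the share of all genes was not tested. Slc1a6 (chr10:78780496-78814765, plus strand), a high-affinity glutamate carrier best known from cerebellar Purkinje cells, had levels of 66.0 and 75.2 CPM in vehicle, 53.2 and 55.2 in CCM, 65.3 and 55.5 in LA, and 188 and 176 in TCM. Both TCM libraries lay far above the other 6. The gene was 3.36-fold higher in TCM than in CCM (log2 fold change 1.75, SE 0.11, adjusted P = 1.1e-05). Per exon length it went from 25.2 CPM per kilobase in CCM to 84.6 in TCM, a level close to those of Slc7a5 (86.5) and Slc3a2 (91.6) in TCM.

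Slc1a3 (chr15:8634124-8710764, minus strand) carries the same substrates, glutamate and aspartate, and moved the opposite way. Its levels were 11.4 and 14.9 CPM in vehicle, 19.3 and 16.7 in CCM, 15.97 and 21.8 in LA, and 7.06 and 6.77 in TCM. The TCM libraries were the lowest, and the vehicle libraries lay between them and the rest. Slc1a3 was 2.61-fold lower in TCM than in CCM (log2 fold change −1.38, SE 0.20, adjusted P = 0.0007).

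Slc1a4 (chr11:20302180-20332713, minus strand), which exchanges serine, alanine and other small neutral amino acids, was highest in vehicle, at 128 and 125 CPM, and stood at 106 and 101 in CCM, 97.4 and 87.4 in LA, and 57.5 and 63.0 in TCM. No library of 1 condition overlapped another condition. The fall from CCM to TCM was 1.71-fold (log2 fold change −0.78, SE 0.10, adjusted P = 0.00032). Slc1a5, the related glutamine carrier, had 121 and 114 CPM in CCM and 82.1 and 87.3 in TCM, a fall of 1.39-fold (log2 fold change −0.47, SE 0.11, adjusted P = 0.013). Its call was lost when either CCM library was left out.

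**Figure D3:**
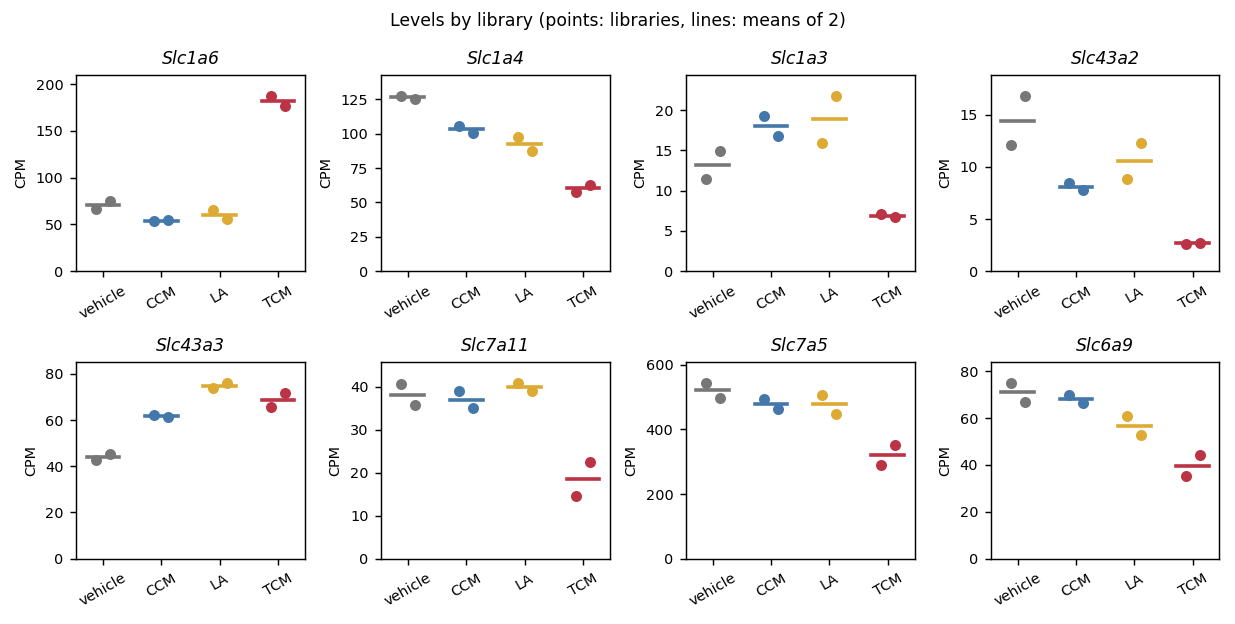
Level in CPM (vertical axis, from 0) of 8 members in each library (points) of the 4 conditions, with a line at the mean of 2. The TCM points of Slc1a6 lie above all others, those of Slc1a4, Slc1a3, Slc43a2, Slc7a11, Slc7a5 and Slc6a9 lie below all others, and for Slc43a3 the vehicle points lie below all others.

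Among the light chains, 3 of 4 tested genes were called lower in TCM, beside 10.2% of all genes. Slc7a6 was not called (log2 fold change −0.12). Slc7a11 (chr3:49892526-50443614, minus strand), the cystine-glutamate exchanger that supplies cysteine for glutathione, had 40.7 and 35.7 CPM in vehicle, 39.05 and 34.98 in CCM, 40.9 and 38.9 in LA, and 14.7 and 22.5 in TCM. The other 6 libraries lay close together, and both TCM libraries were below them while differing from each other. The fall from CCM to TCM was 2.00-fold (log2 fold change −0.999, SE 0.17, adjusted P = 0.0020).

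Slc7a5 (chr8:121881150-121907694, minus strand) stood at 544 and 498 CPM in vehicle, 493 and 464 in CCM, 507 and 449 in LA, and 289 and 353 in TCM. The TCM libraries did not overlap the others. The fall was 1.49-fold (log2 fold change −0.58, SE 0.12, adjusted P = 0.0061), and without CCM replicate 1 the adjusted P was 0.064. Slc7a7, which exports cationic amino acids in exchange for neutral ones, had 18.1 and 15.6 CPM in CCM and 12.4 and 12.01 in TCM (log2 fold change −0.46, SE 0.15, adjusted P = 0.046). That call was lost under 11 of 16 alternatives that kept the fold threshold, DESeq2 among them. The exons of Slc7a7 also overlap those of Oxa1l on the opposite strand, and whether reads were counted by strand is not given in the sources used here. The same limit holds for Slc6a9, Slc7a2, Slc38a10 and Slc43a2, also called between TCM and CCM, whose exons overlap those of other opposite-strand genes.

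The heavy chain Slc3a2 stayed short of the threshold, with 383 and 388 CPM in CCM and 343 and 304 in TCM (log2 fold change −0.25, SE 0.11, adjusted P = 0.13), but was called lower without TMM scaling (log2 fold change −0.39, adjusted P = 0.026). The ratio of Slc7a5 to Slc3a2, both per kilobase of exon, ran from 1.13 to 1.23 in the 6 libraries of vehicle, CCM and LA and was 0.802 and 1.10 in TCM. Both TCM ratios were below the others, although the second was close to them. Slc3a1, the kidney and gut heavy chain, had at most 4 counts, and the 6 light chains that were not tested had at most 5.

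The cationic carriers take up arginine and lysine. Slc7a2, inducible in inflammation and a supplier of arginine to nitric oxide synthase, had 491 and 444 CPM in CCM and 266 and 335 in TCM, a fall of 1.56-fold (log2 fold change −0.64, SE 0.15, adjusted P = 0.011). Without CCM replicate 1 its adjusted P was 0.091. Slc7a1, the constitutive carrier of this group, had 142 and 130 CPM in CCM and 93.3 and 125 in TCM and did not pass (log2 fold change −0.32, adjusted P = 0.10), but was called lower without TMM scaling (adjusted P = 0.024) and without TCM replicate 2 (log2 fold change −0.55, adjusted P = 0.0011). The third tested gene, Slc7a3, had a log2 fold change of −0.50 at a level of 3.70 to 5.19 CPM in the group means and was not called. Summed over the 7 tested genes of the Slc7 family, the level was 1278 ± 67.8 CPM in CCM and 891 ± 135 in TCM (SD, n = 2 each), with 795 and 986 CPM in the 2 TCM libraries.

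Of the 7 tested genes of the Slc38 family, sodium-coupled carriers of glutamine and other neutral amino acids, 1 was called, and it was higher. Of all genes, 19.1% were called. Slc38a10, a less studied member (chr11:120103960-120151346, minus strand), had 246 and 273 CPM in vehicle, 245 and 237 in CCM, 237 and 264 in LA, and 320 and 347 in TCM. Both TCM libraries were above the other 6, and the rise from CCM was 1.39-fold (log2 fold change 0.47, SE 0.10, adjusted P = 0.0071). The call was lost without TMM scaling, where the log2 fold change was 0.33, and without either CCM library.

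Slc38a2, which cells increase when amino acids run short, had 559 and 560 CPM in CCM and 568 and 694 in TCM, and was not called (log2 fold change 0.17, SE 0.11, adjusted P = 0.31). Slc38a1, a glutamine carrier of proliferating cells, had 17.4 CPM in both CCM libraries and 11.7 and 19.5 in TCM, so the groups overlapped (log2 fold change −0.16, adjusted P = 0.65). Without TCM replicate 2 it was called lower (log2 fold change −0.57, adjusted P = 0.039). Slc38a9 was not called either (log2 fold change −0.21, SE 0.21). The remaining members of the family ranged from −0.28 to 0.28 on the log2 scale. Summed over 7 genes the Slc38 family stood at 874 ± 11.8 CPM in CCM and 1035 ± 118 in TCM (SD, n = 2 each).

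The tested genes of the Slc36 family, which includes proton-coupled lysosomal carriers, gave no call, beside 19.1% of all genes called. Slc36a1 had 17.1 and 18.6 CPM in CCM and 14.7 and 15.9 in TCM (log2 fold change −0.22, SE 0.17, adjusted P = 0.37), and Slc36a4 differed by −0.10 on the log2 scale.

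In the Slc43 family, Slc43a2 (chr11:75531694-75577575, plus strand), a facilitated carrier of branched-chain amino acids and phenylalanine, showed the largest fall of any tested member. Its levels were 12.1 and 16.8 CPM in vehicle, 8.43 and 7.74 in CCM, 8.87 and 12.3 in LA, and 2.63 and 2.73 in TCM. Both TCM libraries were far below the rest, and vehicle replicate 2 was the highest. The fall from CCM to TCM was 3.01-fold (log2 fold change −1.59, SE 0.27, adjusted P = 0.0019). Slc43a1 and Slc43a3 were not called between TCM and CCM (log2 fold change 0.26 and 0.15).

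Slc6a9, the glycine carrier (chr4:117834506-117875198, plus strand), had 75.1 and 66.9 CPM in vehicle, 69.8 and 66.3 in CCM, 60.9 and 52.6 in LA, and 35.3 and 44.1 in TCM. Libraries of TCM were the lowest and those of LA lay between them and the rest. The fall from CCM to TCM was 1.72-fold (log2 fold change −0.78, SE 0.13, adjusted P = 0.0017). The taurine carrier Slc6a6 had 167 and 180 CPM in CCM and 117 and 150 in TCM and did not pass (log2 fold change −0.38, SE 0.17, adjusted P = 0.15). Slc6a6 was called lower without TMM scaling (log2 fold change −0.52, adjusted P = 0.040). With replicate number added to the fit as a block it was also called (log2 fold change −0.39, adjusted P = 0.023).

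In LA against vehicle, 1 member was called higher and 1 lower, 7.69% of the tested members beside 2.55% of all genes, with 1.31% of all genes called higher and 1.24% called lower. The median log2 fold change was −0.10 over the members and 0.00 over all genes. Slc43a3 (chr2:84936579-84958509, plus strand), a family member reported to carry purine nucleobases, had 42.9 and 45.1 CPM in vehicle, 62.2 and 61.6 in CCM, 73.8 and 76.1 in LA, and 65.7 and 71.8 in TCM. Vehicle libraries were the lowest and LA libraries the highest. The rise with LA was 1.70-fold (log2 fold change 0.77, SE 0.10, adjusted P = 0.0028). The proliferation genes named above were also higher in LA than in vehicle, 4 of 6 called. In CCM against vehicle 3 of these 6 were called, also higher.

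Slc1a4 was 1.37-fold lower in LA than in vehicle (log2 fold change −0.46, SE 0.10, adjusted P = 0.033), from the library values given above, which did not overlap. This call was lost when any of the 6 libraries of vehicle, CCM or LA was left out, with adjusted P up to 0.27. Among the members called in TCM, Slc6a9 (log2 fold change −0.33, adjusted P = 0.26), Slc43a2 (−0.43, adjusted P = 0.36) and Slc7a2 (−0.30, adjusted P = 0.38) had negative values with LA that did not pass. Slc7a11 and Slc7a5 had log2 fold changes of 0.06 (SE 0.16) and −0.13 (SE 0.12), and Slc3a2 of −0.10 (SE 0.11). Slc1a3 had a positive value of 0.53 (SE 0.18, adjusted P = 0.19) and was called when genes of low counts were kept in the test (adjusted P = 0.037), which made 3 member calls beside 656 over all genes. Slc43a1, a leucine carrier picked out after the results were seen, had 2.23 and 1.48 CPM in vehicle (20 and 16 counts) and 2.96 and 3.17 in LA. Its log2 fold change of 0.75 (SE 0.29) was close in size to that of Slc43a3 but did not pass (adjusted P = 0.25). The vehicle libraries of Slc43a1 also lay below those of CCM (2.87 and 2.58 CPM) and TCM (3.06 and 3.49 CPM). In CCM against vehicle its log2 fold change was 0.57 (SE 0.29, adjusted P = 0.46).

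Conditioning by FRCs alone gave 1 call. In CCM against vehicle, Slc43a3 was 1.41-fold higher (log2 fold change 0.49, SE 0.10, adjusted P = 0.042), which is 3.85% of the tested members beside 1.30% of all genes (0.898% higher and 0.404% lower). The call was lost when any library of vehicle, CCM or LA was left out. Slc43a2 was 14.5 ± 3.37 CPM in vehicle and 8.09 ± 0.49 in CCM (SD, n = 2 each). Its log2 fold change of −0.84 (SE 0.21) missed the threshold (adjusted P = 0.076). Slc43a2 was called under 5 alternatives, among them the fit of only the libraries compared and the fit that kept genes of low counts. Slc1a6 had a log2 fold change of −0.38 (adjusted P = 0.13). It was likewise called with only the libraries compared (−0.39, adjusted P = 0.0060) and with genes of low counts kept (−0.40, adjusted P = 0.038).

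The effects of TCM and of LA, each against its own control, share no library and were compared directly as a difference of log2 fold changes. It was called for 5 of 26 members, 2 higher and 3 lower, or 19.2% beside 10.4% of all genes (4.45% higher and 6.00% lower). The difference was 1.98 (SE 0.16, adjusted P = 4.4e-05) for Slc1a6 and −1.92 (SE 0.27, adjusted P = 0.0011) for Slc1a3. For Slc7a11 it was −1.06 (SE 0.23, adjusted P = 0.015), for Slc43a3 −0.62 (SE 0.14, adjusted P = 0.016) and for Slc38a10 0.52 (SE 0.14, adjusted P = 0.039). Slc43a2 came close, at −1.16 (SE 0.34, adjusted P = 0.054), and was called under 6 alternatives. For Slc1a4, the 1 member called in both comparisons and lower in each, the difference of −0.32 (SE 0.14) did not pass (adjusted P = 0.18). Slc1a4 was 1 of 11 TCM calls (9.09%) and 1 of 2 LA calls. The sign was shared in 18 of 26 members (69.2%), beside 51.5% of all genes. Beside these differences, the same 6 proliferation genes were all called lower in this comparison of effects.

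**Figure D4:**
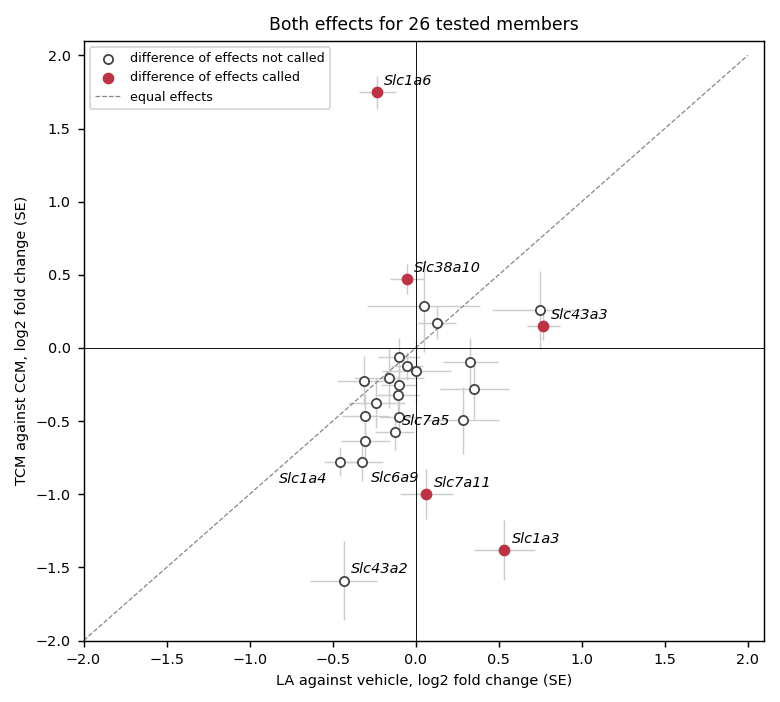
Log2 fold change with LA against vehicle (horizontal axis) and with TCM against CCM (vertical axis) for the 26 tested members, with SE bars, a dashed line where both effects are equal, and filled points where the difference was called. Slc1a6 lies high above the line, Slc1a3 and Slc7a11 lie below it, and most members cluster at the lower left near 0.

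Other genes of amino acid handling were read from 4 lists. Among 10 tested carriers outside these families, 1 (10%, beside 19.1% of all genes) was called between TCM and CCM. It was Slc25a38, the mitochondrial glycine carrier, which was lower (log2 fold change −0.56, SE 0.15, adjusted P = 0.022). DESeq2 called 0 of these 10 carriers, beside 2004 of all genes. Among 36 genes of amino acid synthesis and breakdown, 14 passed (38.9%, beside 19.1% of all genes). Of these, 6 were higher in TCM (16.7%, beside 8.83%) and 8 lower (22.2%, beside 10.2%). DESeq2 called 13 of the 36. Psat1, of serine synthesis, had 297 and 321 CPM in CCM and 146 and 151 in TCM and fell by 1.06 on the log2 scale (SE 0.12, adjusted P = 0.00014). Odc1, of polyamine synthesis, rose (log2 fold change 0.58, SE 0.09, adjusted P = 0.0015).

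Among 33 genes of amino acid sensing by mTORC1, 3 were called (9.09%, a smaller share than the 19.1% of all genes). They were the sestrins, which restrain mTORC1 when amino acids are scarce or cells are stressed. Sesn2 had 109 and 113 CPM in CCM and 45.7 and 57.0 in TCM (log2 fold change −1.12, SE 0.14, adjusted P = 0.00031). Sesn3 fell by 0.71 on the log2 scale and Sesn1 by 0.392, just beyond the threshold of 0.39. DESeq2 called 2 genes of this list. The median log2 fold change of the list in edgeR was 0.08. The last list held transcription factors and other genes of the stress response, among them the kinases Eif2ak3 and Eif2ak4 and Chac1, an enzyme that breaks down glutathione. Among its 19 tested genes 8 were called (42.1%, beside 19.1%), 1 higher (5.26%, beside 8.83%) and 7 lower (36.8%, beside 10.2%). DESeq2 called 7 of the 19. Chac1, picked out after the results were seen, was 1 of the 7 (log2 fold change −0.82, SE 0.22, adjusted P = 0.024). The list was led by Atf5 (log2 fold change −1.01, SE 0.11, adjusted P = 0.00010), Cebpg (−0.68, adjusted P = 0.00071) and Ddit3 (−1.12, adjusted P = 0.0028), which act in the stress response downstream of or alongside Atf4. Atf4 itself, whose value was picked out after the results were seen, had a log2 fold change of −0.22 (SE 0.14, adjusted P = 0.30).

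In LA against vehicle none of the 98 tested genes of the 4 lists was called by edgeR, although 12 had an unadjusted P under 0.05 and DESeq2 called 2. Ddit3 had a log2 fold change of −0.75 (SE 0.19, adjusted P = 0.070), and Flcn of the mTORC1 list −0.47 (SE 0.12, adjusted P = 0.081). Among genes of synthesis and breakdown, Aldh4a1 had the smallest adjusted P (−0.54, SE 0.13, adjusted P = 0.066). Psat1 (−0.44, SE 0.12, adjusted P = 0.080) and Bckdha (−0.42, SE 0.11, adjusted P = 0.081) came next. Between TCM and CCM, Aldh4a1 and Bckdha had log2 fold changes of 0.05 and 0.04 and were not called. In CCM against vehicle none was called by edgeR, 12 had an unadjusted P under 0.05 and DESeq2 called 0. The difference between the effects of TCM and LA was called for 10 genes of synthesis and breakdown (27.8%, beside 10.4% of all genes), among them Ass1 (1.35, SE 0.23, adjusted P = 0.0034) and Cbs (−2.63, SE 0.48, adjusted P = 0.0052), the latter at 5 to 44 counts. In the mTORC1 list it was called for Sesn2 alone (3.03%; −0.85, adjusted P = 0.020). In the list of regulators and stress genes it was called for Cebpg (−0.76, adjusted P = 0.0053) and Atf5 (−0.81, adjusted P = 0.0059), 10.5% of that list.

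**Figure D5:**
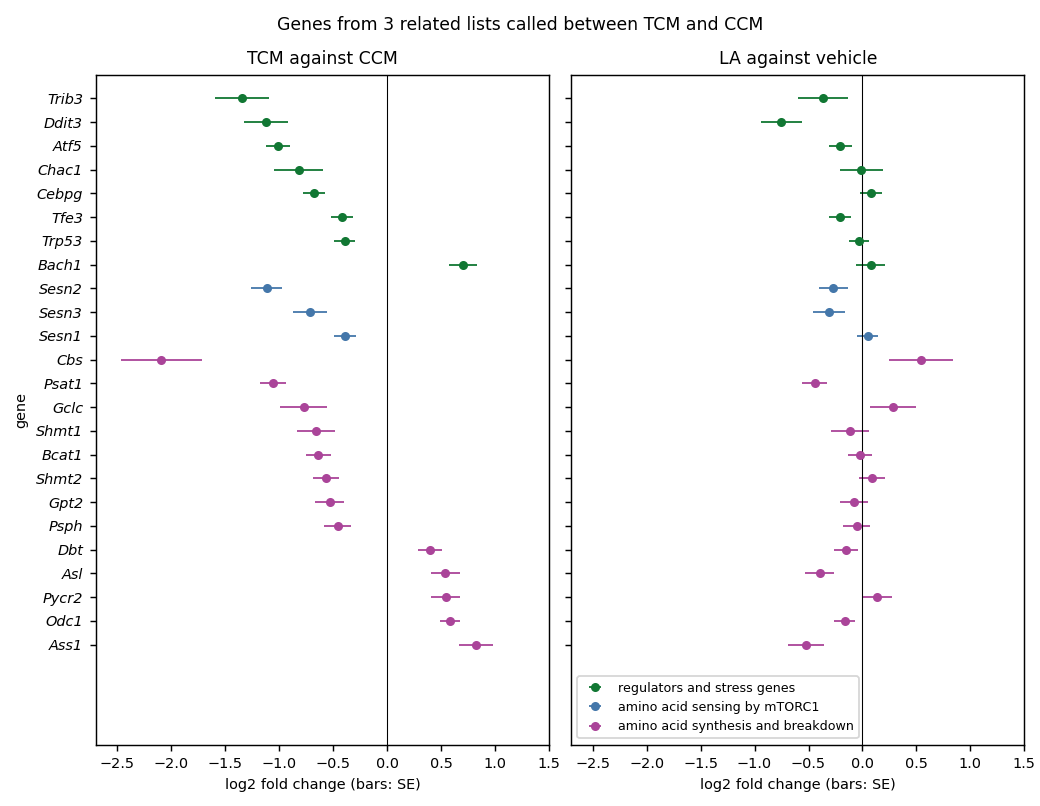
Log2 fold change (horizontal axis, bars are SE) of 24 genes called between TCM and CCM from the lists of regulators and stress genes, mTORC1 sensing and amino acid synthesis and breakdown, shown for TCM against CCM (left) and LA against vehicle (right). In the left panel 7 genes of the regulator and stress list, Chac1 among them, and 3 sestrins lie below 0, and in the right panel no gene was called.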

How the data were processed

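Directional poly(A) libraries were made from FRC RNA. The deposited table holds raw counts per gene, which the authors made with STAR 2.7.0a (Ensembl annotation of GRCm38) and featureCounts of Subread 2.0.1, and they ran DESeq2 1.32.0. A second deposited table of 12137 genes held values equal to the raw counts in 100% of cells and was not used further. Libraries were assigned to conditions from their titles. The study calls the libraries of a condition biological replicates, and the labels do not say whether these were separate cultures. P values measure the spread between these libraries only. For each gene the main fit assumed the same spread in all conditions, yet the TCM replicates differed most. As a chi-square value over its degrees of freedom, the gap between replicates was 19.8 in TCM, 7.32 in LA, 4.82 in vehicle and 3.28 in CCM. SE and P values of comparisons that use TCM may therefore be too small, which was not tested.

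Genes reaching 10 counts in 3 or more of the 8 libraries were fitted together with edgeR 4.0.16 (R 4.3.3, quasi-likelihood, robust, TMM factors 0.938 to 1.04). The SE is the size of the log2 fold change divided by the square root of F. CPM used TMM library sizes. Differences were called at an adjusted P under 0.05 (Benjamini-Hochberg) and a log2 fold change beyond 0.39. Tested on simulated counts, the fit recovered nearly all changed genes, and its share of false calls was above the nominal rate. Intervals implied by counts cover counting error only, and the level that 3 counts give is quoted for genes at 0. Exon lengths and positions came from GENCODE M21 (GRCm38), and 7 tested members shared exon sequence with a gene on the opposite strand. They were Slc6a6, Slc6a9, Slc7a2, Slc7a7, Slc38a9, Slc38a10 and Slc43a2.

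Named with values were members called in any comparison, 13 members chosen for their role and up to 3 genes of smallest adjusted P per list, of which 1 is not reported here and is left out of the plot of the lists. Members, lists and motifs were chosen with earlier results of these data known. Alternatives were 2 other scalings, DESeq2 1.42.0, 2 filters, 2 fold thresholds, fits of only the libraries compared, a replicate block and leaving out each library.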

Additional observations from a re-analysis of the deposited data

Results flagged for a closer look

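For 5 members the effect of TCM (against CCM) and the effect of LA (against vehicle) differed by the test of the difference itself in edgeR. The difference of log2 fold changes was 1.98 for Slc1a6, −1.92 for Slc1a3, −1.06 for Slc7a11, −0.62 for Slc43a3 and 0.52 for Slc38a10. For Slc43a3 the difference came with a rise under LA against vehicle and no call under TCM against CCM, and the CCM libraries lay above the vehicle libraries. For Slc38a10 the call was lost without TMM scaling and when any library of vehicle, CCM or LA was left out. For Slc43a3 it was lost without either vehicle library, either CCM library or LA replicate 2, and for Slc7a11 without vehicle replicate 2 or CCM replicate 1.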

How the results depend on the processing

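Of 19 calls among the members, 9 held under every alternative other than the stricter fold threshold and 10 were lost under at least 1, with no change of sign. Requiring a log2 fold change beyond 1 left 3 members in TCM against CCM (760 of all genes), 0 in LA against vehicle (86), 0 in CCM against vehicle (19) and 3 for the difference of effects (634). In CCM against vehicle, the main fit called 1 member (158 of all genes). Without the filter on low counts 3 members were called (584), and 3 (679) when only the libraries compared were fitted. Leaving out each library gave 6 to 12 calls for TCM against CCM (6 without CCM replicate 1), 1 to 2 for LA against vehicle, 0 to 2 for CCM against vehicle (2 without either TCM library) and 2 to 8 for the difference of effects (2 without CCM replicate 1 and 8 without TCM replicate 2). Calls over all genes moved as well, from 1195 to 2864, 57 to 617, 0 to 497 and 629 to 2540 in the same order. Where 1 library of a condition remained, it was assumed to vary like the others. The difference of effects uses all libraries, so no fit of only the libraries compared was made for it. The causes were not tested. Replicate numbers were not taken to pair the libraries: the correlation of deviations from the condition means was 0.35 between LA and vehicle and 0.11 between TCM and each of these, whereas CCM gave −0.04 against vehicle, −0.08 against LA and −0.24 against TCM. With the replicate block, 11 members were called in TCM against CCM (2367 of all genes) and 6 for the difference of effects (1316). In TCM against CCM, Slc7a7 was lost at an adjusted P of 0.054 and Slc6a6 gained at 0.023. With CCM numbers crossed, a pairing added after seeing the data, 12 members were called in TCM against CCM (2675 of all genes). In CCM against vehicle 2 were called (457). Among 57 uncalled values of named members, 11 were called under some alternative: Slc7a1, Slc6a6, Slc3a2 and Slc38a1 in TCM against CCM, Slc1a3 in LA against vehicle, Slc43a2 and Slc1a6 in CCM against vehicle, and Slc43a2, Slc7a5, Slc6a9 and Slc7a1 for the difference of effects. Of the 57, 19 changed sign under some alternative, Slc38a1 in TCM against CCM among them, and the lowest adjusted P where they did was 0.54. Without TMM factors the difference of effects became −0.059 for Slc36a1 and −0.10 for Slc38a2. For Slc38a1, LA against vehicle became −0.000259 with DESeq2, −0.00344 with the replicate block and −0.00403 with the block crossed. Leaving out single libraries, the log2 fold change of TCM against CCM ran from −0.57 to 0.17 for Slc38a1. For LA against vehicle it ran from −0.27 to 0.054 for Slc1a5, −0.16 to 0.18 for Slc38a1, −0.13 to 0.028 for Slc38a10, −0.37 to 0.11 for Slc38a9 and −0.028 to 0.16 for Slc7a11. For CCM against vehicle it ran from −0.016 to 0.066 for Slc1a5, −0.37 to 0.046 for Slc36a1, −0.20 to 0.11 for Slc38a1, −0.054 to 0.42 for Slc38a9, −0.052 to 0.29 for Slc6a6, −0.15 to 0.026 for Slc6a9, −0.14 to 0.053 for Slc7a11 and −0.26 to 0.016 for Slc7a2. For the difference of effects it ran from −0.13 to 0.29 for Slc36a1, −0.58 to 0.16 for Slc38a1, −0.11 to 0.18 for Slc38a2, −0.31 to 0.16 for Slc38a9 and −0.36 to 0.13 for Slc6a6. The SE of the log2 fold change of TCM against CCM ran from 0.097 to 0.31 over the 26 members.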
